A study of Mus musculus with 15 samples.

Results

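Complement genes were described in vascular tissue of C57BL/6 mice, a standard inbred strain, at 10 weeks of age. The 8 genes were C1ra, Serping1, C4b, C2, C3, Cfb, C6 and C7. They were taken by gene symbol from a table of 32930 genes, of which 15586, all 8 included, reached the level needed for a test. RNA of 3 groups was sequenced, with 5 libraries in each. NS is labelled as normal and AngII as hypertension, after angiotensin II, the hormone that constricts vessels and raises blood pressure. Lien carries the hypertension label with Lien added, which the series' title gives as liensinine, an alkaloid of the lotus. The labels give no dose, duration, sex or batch, and leave unstated whether every library had a mouse of its own, so the p-values below measure the spread between libraries, which may be technical. Their extraction note speaks of hearts where the sample labels give vascular tissue.

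Complement is a cascade of blood and tissue proteins that tags surfaces for uptake and can pierce membranes. The classical pathway starts when C1q binds a target and the attached proteases C1r and C1s cut C4 and C2, whose fragments together cut C3. In the alternative pathway, deposited C3 binds factor B, which factor D cuts to make a second C3-cutting enzyme. Both lead to C5, after which C6, C7, C8 and C9 assemble into the membrane attack complex. The liver makes most of the circulating proteins, while fibroblasts, macrophages and adipocytes make many of them in place, and interferon and interleukin signalling through STAT and NF-kappaB factors is known to raise several.

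The genes lie in clusters. On GRCm38, C2 (chr17:34862604-34898265) and Cfb (chr17:34856374-34862518), both on the minus strand, are 85 bases apart, and C4b (chr17:34728380-34743882, minus) lies 112491 bases beyond Cfb. C6 (chr15:4727175-4814967, plus) and C7 (chr15:4988762-5063740, minus) are 173794 bases apart. C3 (chr17:57203970-57228136, minus), Serping1 (chr2:84765387-84775444, minus) and C1ra (chr6:124512405-124523443, plus) lie apart from these and from each other.

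Promoter windows of 300 bases (250 before to 50 after the start that RefSeq gives) were matched for C3, C1ra, C6 and C7 in RefSeq sequence of GRCm38.p6. Each was searched on both strands for TTCNNNGAA, the letters of STAT sites, for the core letters of interferon-stimulated response elements, and for GGGNNTTCC, those of NF-kappaB sites. Among 32851 promoters, 8.3% held the first, 3.44% the second and 5.82% the third. C1ra and C7, whose RNA varied alongside that of C2 among the 9 libraries described below as the lower side, are shown. C6, the neighbour of C7 with another pattern among those libraries, is shown with them. Capitals mark the TTCNNNGAA match, and windows run 5′ to 3′ on the strand of the gene (C1ra chr6:124512371-124512670, plus; C7 chr15:5063724-5064023, minus; C6 chr15:4726960-4727259, plus).
C1ra: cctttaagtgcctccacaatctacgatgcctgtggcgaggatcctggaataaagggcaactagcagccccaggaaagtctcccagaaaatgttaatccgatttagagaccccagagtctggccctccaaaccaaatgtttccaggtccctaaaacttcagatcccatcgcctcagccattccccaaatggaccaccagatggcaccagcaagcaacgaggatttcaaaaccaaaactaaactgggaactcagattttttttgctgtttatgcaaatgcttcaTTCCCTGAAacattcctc
C7: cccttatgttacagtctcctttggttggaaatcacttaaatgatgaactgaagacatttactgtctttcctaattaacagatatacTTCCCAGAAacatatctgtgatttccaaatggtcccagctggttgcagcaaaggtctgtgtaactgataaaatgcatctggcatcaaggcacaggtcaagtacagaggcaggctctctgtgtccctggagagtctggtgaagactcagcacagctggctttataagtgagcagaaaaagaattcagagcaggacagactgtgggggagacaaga
C6: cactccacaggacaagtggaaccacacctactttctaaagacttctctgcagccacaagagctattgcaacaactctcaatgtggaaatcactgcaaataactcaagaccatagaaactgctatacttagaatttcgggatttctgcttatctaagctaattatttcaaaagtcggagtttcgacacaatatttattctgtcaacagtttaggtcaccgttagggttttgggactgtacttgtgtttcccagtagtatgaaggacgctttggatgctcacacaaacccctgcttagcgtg
The match began at base 283 of the C1ra window and at base 87 of the C7 window, counted from the 5′ end. The RefSeq start of C1ra lies 216 bases downstream of the gene start given above, which is that of the GENCODE annotation, so the C1ra match begins 32 bases downstream of the first and 248 bases downstream of the second. The RefSeq start of C6 lies 35 bases downstream of the GENCODE start, that of C7 33 bases upstream, and that of C3 at the same base. The C6 window, like that of C3, held none of these letter patterns. No window was available for C2, C4b, Cfb or Serping1, so these were not searched. A match is a string of letters in the window and was not tested as a binding site. Its relation to RNA levels was not tested either.

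The libraries differed in ways that the groups followed only in part or not at all. The first principal component of all tested genes held 34.2% of the variance and set 6 libraries (NS 2, NS 3, AngII 6, AngII 7, AngII 9 and Lien 11, called the upper side) apart from the other 9 (the lower side). The sides were thus drawn from the values of these same libraries, with the complement genes included. Differences between the sides were therefore partly built in. Nerve and Schwann cell markers averaged 3.76 to 5.12 on the log2(FPKM + 1) scale on the upper side and 1.34 to 2.96 on the lower. Brown adipocyte markers ran the other way, at 4.33 to 5.79 on the upper side and 5.97 to 6.70 on the lower, again with no overlap. FPKM scales the fragments of a transcript to its length and to the fragments of the library. Smooth muscle markers averaged 5.21 to 7.83 and endothelial markers 4.68 to 6.05, so both wall cell types were seen in every library. Cardiomyocyte markers ranged from 0.70 to 7.39. Mesothelium markers averaged 1.48 to 2.48 in NS, 0.30 to 2.22 in AngII and 0.49 to 1.71 in Lien. All AngII libraries but AngII 8 (2.22) lay below every NS library in them. Skeletal muscle markers summed to 9364 FPKM in NS 3, to 1339 FPKM in AngII 9 and to at most 73.5 FPKM elsewhere. AngII 9 also held RNA of hepatocyte genes, with 8 of 8 hepatocyte markers highest there, a summed level of 1254 FPKM and Alb (albumin) at 838 FPKM. In the other libraries that sum was 0.315 to 10.8 FPKM, Alb was at most 8.57 FPKM, and Ttr, Serpina1a and Apoh were at 0 in 11, 11 and 13 of the 15 libraries. Lien 11 had the highest means of the fibroblast markers (7.02) and the macrophage markers (5.59). In bulk RNA, fewer cells of a type and less RNA per cell cannot be told apart.

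All 8 genes had a value above 0 in every library, over a wide range of levels. C3 averaged 343 FPKM over the 15 libraries, Serping1 241, C7 86.1, C4b 60.1, C1ra 38.4, Cfb 37.1, C2 22.4 and C6 2.04, on a scale that is per length of transcript. C3 lay above Serping1 in 14 of 15 libraries, Serping1 above C7 in 15, Cfb above C2 in 14 and C2 above C6 in 15. C7 lay above C4b in 9 of 15 libraries and C1ra above Cfb in 9, so these neighbours in the order were not separated by library. C6 passed the filter on low values with at least 0.5 FPKM in 9 libraries, and the others did so in all 15.

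The question of the first comparison is what differed in the AngII group, and that of the second is what differed where Lien was added. No complement gene passed the test in either, nor in Lien against NS. With limma on log2(FPKM + 1), 0.077% of the 15586 genes passed an adjusted p under 0.05 in AngII against NS, 0.0128% in Lien against AngII and 0.231% in Lien against NS. The lowest adjusted p of any of the 8 was 0.743, 0.740 and 0.751 in the 3 comparisons. At an unadjusted p under 0.05, where 7.04%, 6.4% and 7.06% of all genes lay, 0, 1 and 0 of the 8 were found. None of the 8 had groups that did not overlap, against 2.03%, 0.982% and 1.8% of all genes.

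**Figure D1:**
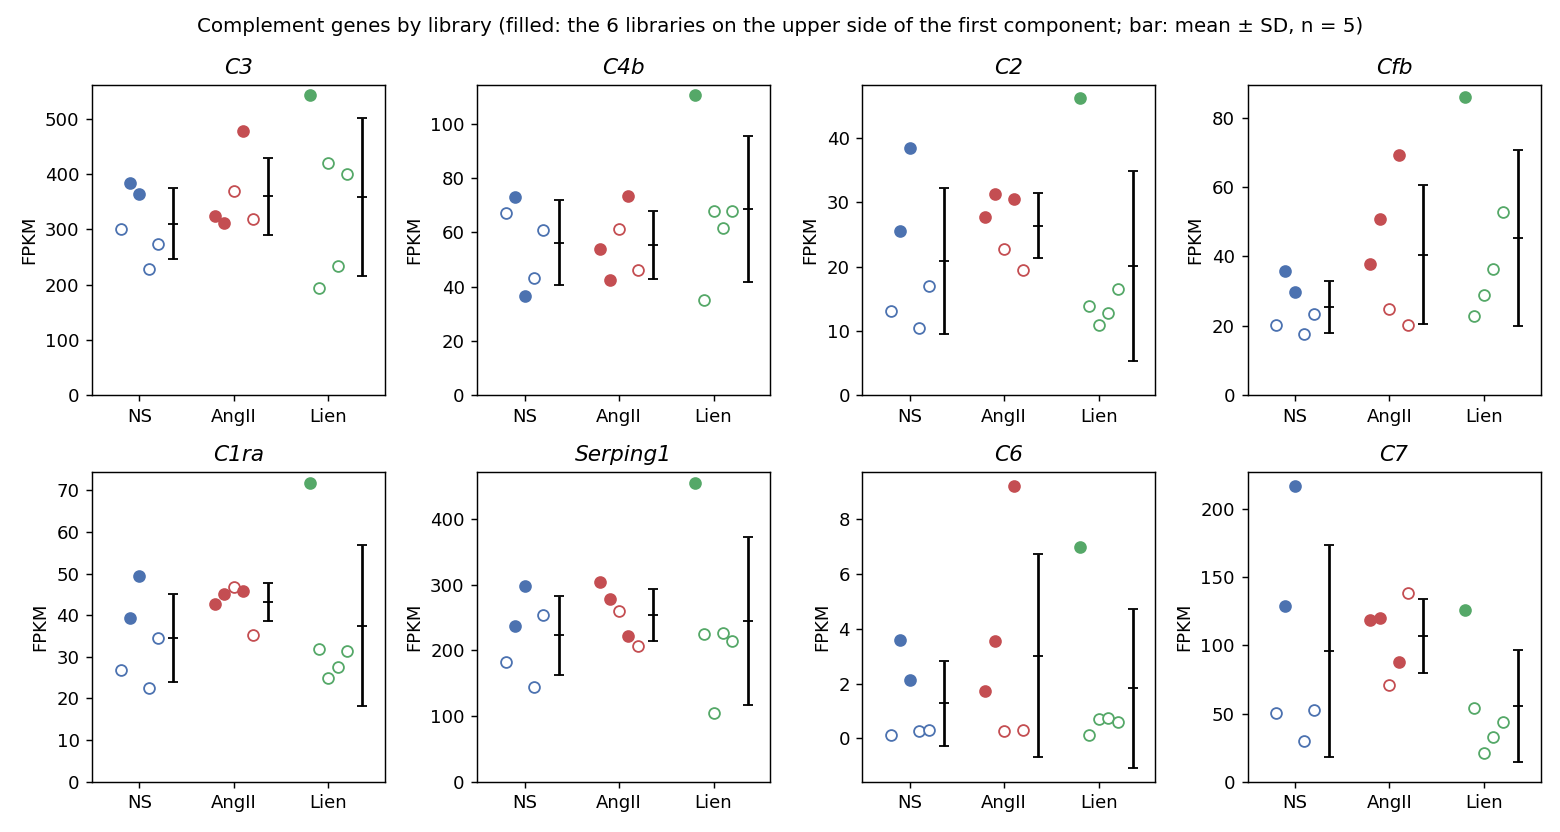
Level of each of the 8 complement genes (vertical axis, FPKM) in each library by group. Filled points are the 6 libraries of the upper side, open points the 9 of the lower side, and the bars give mean ± SD of 5 libraries; Lien 11 is the highest point for C3, C4b, C2, Cfb, C1ra and Serping1, and the groups overlap in every panel.

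Among the genes that start the classical pathway, C1ra, a mouse gene for the protease C1r, varied less within AngII than within NS or Lien. C1ra stood at 27.0, 39.3, 49.4, 22.5 and 34.4 FPKM in NS 1 to 5, at 42.6, 45.1, 46.8, 45.7 and 35.3 FPKM in AngII 6 to 10, and at 71.8, 31.9, 24.9, 27.7 and 31.4 FPKM in Lien 11 to 15. The AngII values lay inside the range of NS, and Lien 11 stood alone above a tight set of 4. C1ra averaged 34.5 ± 10.5 FPKM in NS, 43.1 ± 4.62 in AngII and 37.5 ± 19.4 in Lien (SD, n = 5 each). The log2 difference was 0.36 (SE 0.26, limma adjusted p = 0.761) for AngII minus NS and -0.30 (SE 0.26, limma adjusted p = 0.749) for Lien minus AngII. For Lien minus NS it was 0.06, and without Lien 11 it was -0.20.

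Serping1 encodes the C1 inhibitor, which removes active C1r and C1s from the complex. Serping1 stood at 182, 237, 298, 144 and 253 FPKM in NS 1 to 5, at 304, 278, 260, 222 and 207 FPKM in AngII 6 to 10, and at 455, 225, 104, 226 and 214 FPKM in Lien 11 to 15. Lien held both the highest and the lowest library of the series. The group means were 223 ± 60.3, 254 ± 39.7 and 245 ± 128 FPKM (SD, n = 5 each), and the log2 differences were 0.22 (AngII minus NS), -0.19 (Lien minus AngII) and 0.03 (Lien minus NS), each with an SE of 0.31 and limma adjusted p of 0.858, 0.849 and 0.994. Lien 13, the library lowest in Serping1, also had the lowest mean of the fibroblast markers (5.43) and of the smooth muscle markers (5.21), and their part in its value was not tested.

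C4b and C2 are the substrates of the C1 proteases and together make the classical C3-cutting enzyme. C4b stood at 67.1, 73.2, 36.5, 43.2 and 60.8 FPKM in NS 1 to 5, at 53.9, 42.3, 61.2, 73.6 and 45.9 FPKM in AngII 6 to 10, and at 110.7, 35.2, 67.8, 61.7 and 67.9 FPKM in Lien 11 to 15. NS and AngII covered nearly the same range, with means of 56.2 ± 15.7 and 55.4 ± 12.5 FPKM, and Lien averaged 68.7 ± 27.1 FPKM (SD, n = 5 each). The log2 difference of C4b for AngII minus NS had a 95% interval of -0.58 to 0.58, and that for Lien minus AngII was 0.24 (SE 0.27, limma adjusted p = 0.789).

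C2 split the libraries more than the groups did. C2 stood at 13.1, 25.5, 38.4, 10.4 and 16.9 FPKM in NS 1 to 5, at 27.8, 31.3, 22.7, 30.6 and 19.5 FPKM in AngII 6 to 10, and at 46.3, 13.9, 10.96, 12.7 and 16.6 FPKM in Lien 11 to 15. The upper side held 25.5 to 46.3 FPKM and the lower side 10.4 to 22.7 FPKM, with no overlap. The sides were drawn from all tested genes, C2 included, and the share of all genes that separate them is not given here. The difference between the sides took up 74.5% of the variance of C2 on the log2 scale, and that between the groups 15.4%. The log2 difference was 0.45 (SE 0.37, limma adjusted p = 0.780) for AngII minus NS and -0.56 (SE 0.37, limma adjusted p = 0.740) for Lien minus AngII, and with the side as a term in the fit these were 0.24 and -0.14. For Lien minus NS, C2 differed by -0.11, and by 0.10 with the side as a term.

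C3, the protein on which the pathways converge, was the most abundant of the 8. C3 stood at 300.4, 385, 364, 229 and 273 FPKM in NS 1 to 5, at 324, 311, 369, 478 and 319 FPKM in AngII 6 to 10, and at 545, 194, 421, 234 and 401 FPKM in Lien 11 to 15. The Lien libraries fell into 3 high and 2 low values, the 2 lowest of which were Lien 12 and Lien 14. The means were 310.2 ± 64.4, 360.3 ± 69.4 and 359 ± 144 FPKM (SD, n = 5 each), and the log2 differences were 0.22, -0.09 and 0.13 for AngII minus NS, Lien minus AngII and Lien minus NS, each with an SE of 0.26 and limma adjusted p of 0.833, 0.921 and 0.967.

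Cfb, factor B of the alternative pathway, came nearest to a difference between Lien and NS. Cfb stood at 20.1, 35.8, 29.9, 17.5 and 23.4 FPKM in NS 1 to 5, at 37.7, 50.8, 25.0, 69.3 and 20.1 FPKM in AngII 6 to 10, and at 86.1, 22.8, 28.8, 36.3 and 52.9 FPKM in Lien 11 to 15. Lien 11, Lien 14 and Lien 15 lay above every NS library, and so did AngII 6, AngII 7 and AngII 9. The means were 25.3 ± 7.45, 40.6 ± 20.0 and 45.4 ± 25.4 FPKM (SD, n = 5 each). The log2 difference for Lien minus NS was 0.70 (95% interval -0.090 to 1.497, limma adjusted p = 0.751), and that for AngII minus NS was 0.57 (95% interval -0.23 to 1.36, limma adjusted p = 0.743). Without Lien 11 the former was 0.44, and with the side as a term in the fit it was 0.91 (SE 0.23, limma adjusted p = 0.164). On the lower side alone Cfb stood at 17.5 to 23.4 FPKM in 3 NS libraries, 20.1 to 25.0 FPKM in 2 AngII libraries and 22.8 to 52.9 FPKM in 4 Lien libraries.

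C6 and C7 encode proteins of the membrane attack complex, which bind in that order after C5 is cut. C6 was low and fell into 2 separate ranges. It stood at 0.109, 3.61, 2.12, 0.257 and 0.316 FPKM in NS 1 to 5, at 1.75, 3.54, 0.289, 9.22 and 0.320 FPKM in AngII 6 to 10, and at 6.98, 0.121, 0.695, 0.758 and 0.588 FPKM in Lien 11 to 15. The 6 libraries of the upper side lay at 1.75 to 9.22 FPKM and the 9 of the lower side at 0.109 to 0.758 FPKM, and the side took up 79.3% of the variance against 6.5% for the groups. C6 was among the genes from which the sides were drawn. On the lower side only the values 0.695, 0.758 and 0.588 FPKM, all in Lien, reached the 0.5 FPKM of the filter. C6 therefore passed the filter through the upper side, where all 6 libraries reached that level. The share of all tested genes that separate the sides is not given here, so the split cannot be read as particular to C6. AngII 9, the highest, was also the library with hepatocyte RNA, and it had the highest summed T cell (168.3 FPKM), B cell (176.5 FPKM) and neutrophil (182.5 FPKM) markers. C6 and the T cell markers had r 0.270 on the lower side (exact permutation p = 0.495, adjusted 0.803; rho 0.183, p = 0.644) and 0.690 on the upper (exact permutation p = 0.156, adjusted 0.444; rho 0.714, p = 0.136), and C6 and the B cell markers -0.181 (exact permutation p = 0.643, adjusted 0.871; rho -0.333, p = 0.385) and 0.720 (exact permutation p = 0.131, adjusted 0.431; rho 0.714, p = 0.136). The part of hepatocyte, skeletal muscle or immune cell RNA in the C6 value of AngII 9 was not tested. The log2 differences of C6 were 0.61 (AngII minus NS), -0.47 (Lien minus AngII) and 0.14 (Lien minus NS), each with an SE of 0.64, and leaving out AngII 9 and Lien 11 together gave 0.16, -0.50 and -0.34.

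C7 had the largest difference of the 8 in Lien against AngII. C7 stood at 50.2, 128.9, 217, 29.7 and 52.6 FPKM in NS 1 to 5, at 119, 120, 70.8, 87.6 and 138.5 FPKM in AngII 6 to 10, and at 125.9, 54.0, 20.8, 32.9 and 43.9 FPKM in Lien 11 to 15. The Lien libraries other than Lien 11 lay below every AngII library. C7 averaged 95.7 ± 77.7 FPKM in NS, 107.0 ± 27.3 in AngII and 55.5 ± 41.3 in Lien (SD, n = 5 each). The log2 difference for Lien minus AngII was -1.16 (SE 0.51, 95% interval -2.25 to -0.06, unadjusted p = 0.0397, limma adjusted p = 0.740). Leaving out single libraries gave values from -1.51, without Lien 11, to -0.88, and with the side as a term it was -0.67 (limma adjusted p = 0.999). On the lower side alone the 2 AngII libraries stood at 70.8 and 138.5 FPKM, the 3 NS libraries at 29.7 to 52.6 FPKM and the 4 Lien libraries at 20.8 to 54.0 FPKM, and a fit on those 9 libraries gave -1.44 for Lien minus AngII (limma adjusted p = 0.533) and 1.19 for AngII minus NS (limma adjusted p = 0.673). On the upper side the order of AngII and NS was the other way, with 3 AngII libraries at 87.6 to 120 FPKM and 2 NS libraries at 129 and 217 FPKM.

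**Figure D2:**
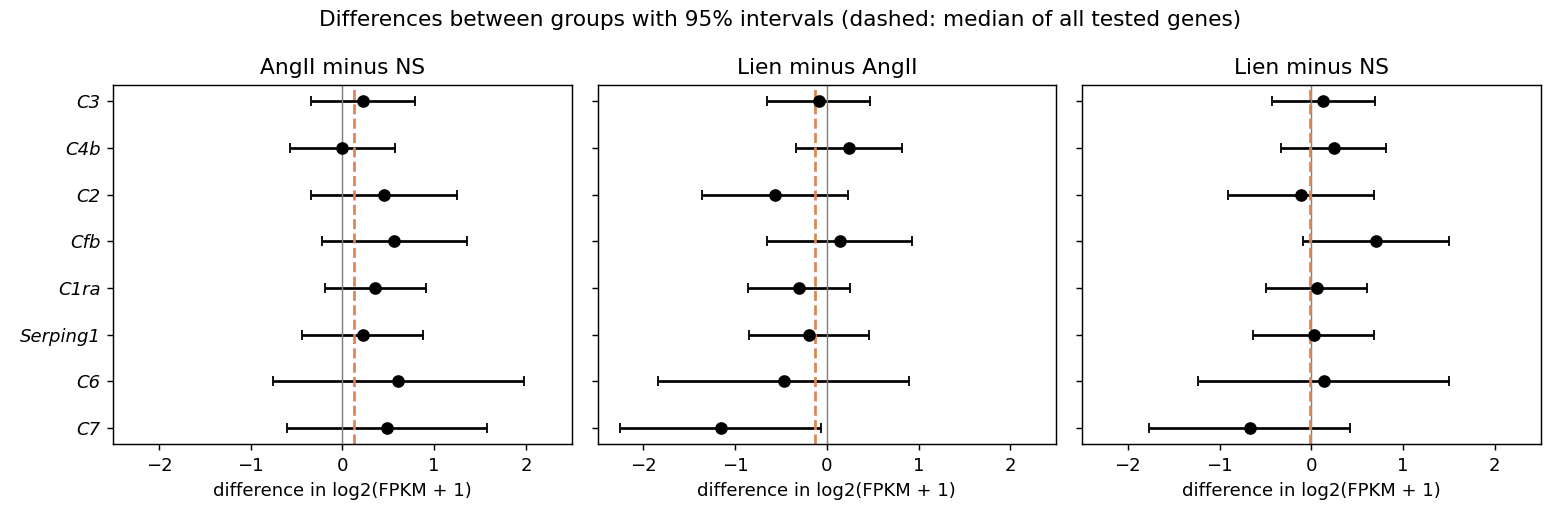
Log2 differences between group means of log2(FPKM + 1) (horizontal axis) for the 8 genes, with 95% intervals from limma. The solid line marks 0 and the dashed line the median of all tested genes; the interval of C7 in Lien minus AngII, -2.25 to -0.06, is the only one that leaves out 0, and none passed the adjusted test.

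Counted together, 7 of 8 genes were above 0 in AngII minus NS (median 0.40), 2 of 8 in Lien minus AngII (median -0.25) and 6 of 8 in Lien minus NS (median 0.10). Over all tested genes, 70.1%, 29.8% and 47.8% were above 0, with medians of 0.12, -0.13 and -0.01. The first 2 comparisons share the AngII libraries. Scaling the libraries to one median moved the median of all genes to -0.00024 and 0.04 in the first 2 comparisons and left 7 and 4 of the 8 above 0, with medians of 0.25 and -0.01. Leaving out Lien 11 gave 1 of 8 above 0 in Lien minus AngII (median -0.51) and 2 of 8 in Lien minus NS (median -0.22). With the mesothelium marker mean as a covariate, 2 of 8 were above 0 in AngII minus NS (median -0.14) and 3 of 8 in Lien minus NS (median -0.19). With the nerve marker mean as a covariate, 6 of 8 were above 0 in Lien minus AngII (median 0.15), and with the side as a term 5 of 8 were (median 0.06), so the majority direction of each comparison depended on these terms.

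Levels of the 8 genes varied by library, those of C4b least between the sides. Lien 11 was the highest library for C3, C4b, C2, Cfb, C1ra and Serping1, AngII 9 for C6 and NS 3 for C7. The share of all tested genes highest in each of these libraries is not given here. NS 4 was the lowest library for C2, Cfb and C1ra, Lien 12 for C3 and C4b, Lien 13 for Serping1 and C7 and NS 1 for C6. Between the sides lay 55.8% of the variance of C7, 54.5% of C1ra, 43.3% of Cfb, 36.1% of Serping1, 26.6% of C3 and 2.2% of C4b, and between the groups 26.5%, 14.1%, 22.3%, 4.4%, 5.4% and 7.4%. The same shares over all tested genes are not given here.

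C2 and C1ra varied together within both sides. Correlations of log2(FPKM + 1) were computed for 28 pairs of the 8 genes in all libraries and on each side, 84 in all, with permutation p-values that were exact within the sides. For C2 and C1ra, Pearson's r was 0.962 over the 9 libraries of the lower side (exact permutation p = 1.65e-05, adjusted 0.00042; Spearman's rho 0.967, p = 0.000165, adjusted 0.00463). Over the 6 of the upper side it was 0.945 (exact permutation p = 0.00278, adjusted 0.0212; rho 0.943, p = 0.0167, adjusted 0.0841). Without the 2 libraries farthest from the median of C2, r was 0.942 on the lower side and 0.976 on the upper. C2 lies on chromosome 17 and C1ra on chromosome 6.

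For C2 and Cfb, neighbours on the chromosome, r was 0.10 over the 9 libraries of the lower side (exact permutation p = 0.802, adjusted 0.863; rho 0.083, p = 0.843) and 0.47 over the 6 of the upper side (exact permutation p = 0.351, adjusted 0.537; rho 0.371, p = 0.497). The difference between these correlations and those of C2 and C1ra was not tested. For C2 and C7 it was 0.811 on the lower side (exact permutation p = 0.0069, adjusted 0.0386; rho 0.883, p = 0.00308, adjusted 0.0258) and 0.757 without the 2 farthest libraries, and 0.367 on the upper side (exact permutation p = 0.501, adjusted 0.657; rho 0.257, p = 0.658). For C6 and C7, also neighbours, r was -0.464 on the lower side (exact permutation p = 0.208, adjusted 0.380; rho -0.350, p = 0.359) and -0.629 on the upper (exact permutation p = 0.182, adjusted 0.347; rho -0.257, p = 0.658). Over all 28 pairs, 27 were positive across the 15 libraries (median r 0.634), 20 on the lower side (median r 0.193) and 24 on the upper side (median r 0.450). The same counts over pairs of all tested genes are not given here, so these cannot be read as particular to complement.

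**Figure D3:**
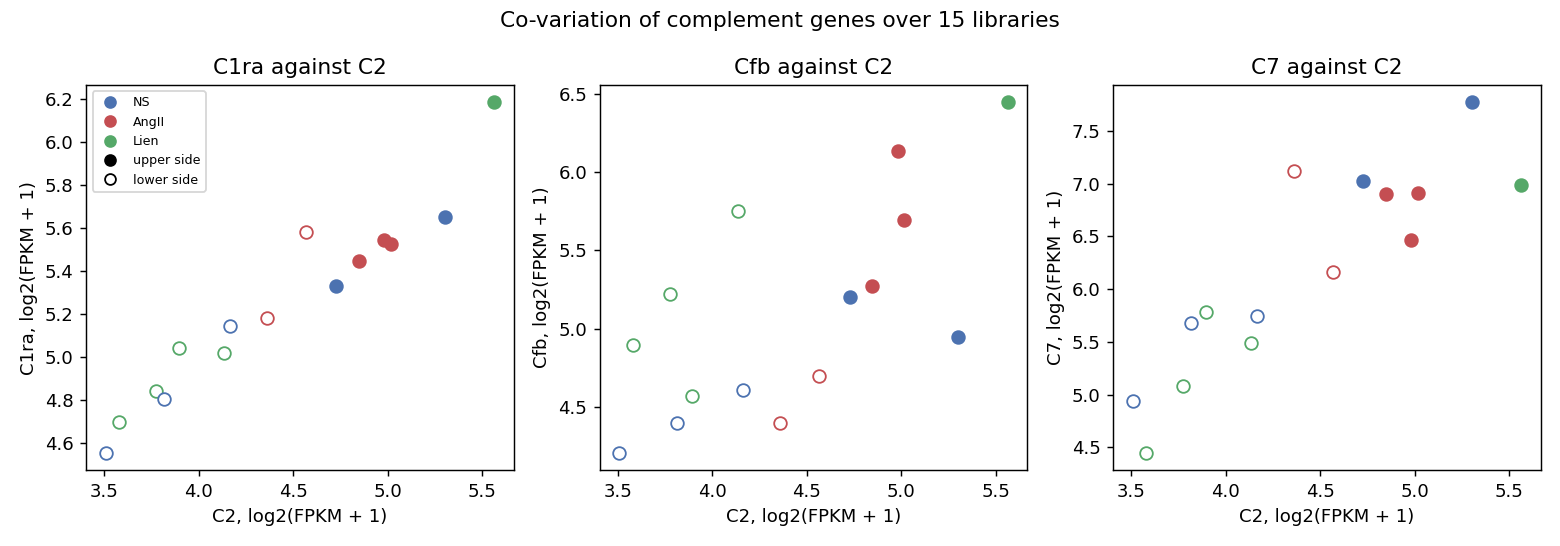
Level of C1ra, Cfb and C7 against that of C2 in 15 libraries, both axes on the log2(FPKM + 1) scale. Colours give the group, filled points the upper side and open points the lower side; r with C2 on the lower and upper side is 0.962 and 0.945 for C1ra, 0.10 and 0.47 for Cfb, and 0.811 and 0.367 for C7.

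Marker lists of other cell types moved with some of these genes. The means of 14 marker lists were set against the 8 genes, 336 correlations with the sides. Serping1 followed the fibroblast and adventitia markers, with r 0.864 over the 9 libraries of the lower side (exact permutation p = 0.00395, adjusted 0.0554; rho 0.683, p = 0.0503, adjusted 0.319) and 0.949 over the 6 of the upper side (exact permutation p = 0.00278, adjusted 0.0491; rho 0.943, p = 0.0167, adjusted 0.181). Without the 2 libraries farthest from the median of the complement gene, here Serping1, the lower value was 0.335, so on that side the relation rested on them. The upper value was 0.851. C2 followed the same markers on the lower side (r 0.883, exact permutation p = 0.00153, adjusted 0.0286; rho 0.900, p = 0.00203, adjusted 0.0524; r 0.834 without the 2 farthest libraries) and had r 0.609 on the upper side (exact permutation p = 0.201, adjusted 0.489; rho 0.486, p = 0.356). With the fibroblast markers, C1ra had r 0.802 on the lower side (exact permutation p = 0.00861, adjusted 0.0831) and 0.714 on the upper (exact permutation p = 0.101, adjusted 0.398). C7 had r 0.748 on the lower side (exact permutation p = 0.0197, adjusted 0.141) and 0.169 on the upper (exact permutation p = 0.793, adjusted 0.925). Brown adipocyte markers had negative correlations with C2 and C1ra, none of which passed the adjustment within a side. For C2, r with them was -0.65 on the lower side (exact permutation p = 0.0610, adjusted 0.3005; rho -0.65, p = 0.0666) and -0.92 on the upper (exact permutation p = 0.0167, adjusted 0.129; rho -0.771, p = 0.103), and -0.26 and -0.013 without the 2 farthest libraries, on which it rested. For C1ra it was -0.752 (exact permutation p = 0.0168, adjusted 0.129; rho -0.783, p = 0.0172) and -0.839 (exact permutation p = 0.0194, adjusted 0.141; rho -0.60, p = 0.242), and -0.493 and -0.812 without them. Cfb and the macrophage markers had r 0.646 on the lower side (exact permutation p = 0.0739, adjusted 0.327; rho 0.550, p = 0.133) and 0.928 on the upper (exact permutation p = 0.00694, adjusted 0.0753; rho 0.943, p = 0.0167), and 0.526 and 0.611 without the 2 farthest libraries. C6 separated the sides as the nerve markers did, but within the sides its r with them was -0.168 (exact permutation p = 0.668, adjusted 0.878; rho -0.067, p = 0.880) and -0.080 (exact permutation p = 0.874, adjusted 0.958; rho -0.314, p = 0.564). The summed level of the fibroblast list was 846 to 1963 FPKM in NS, 1341 to 1858 in AngII and 741 to 2375 in Lien, and that of the macrophage list 291 to 598, 350 to 986 and 334 to 1016 FPKM. None of the 8 markers of either list was at 0 in any library. The part of these cells in the complement values was not tested.

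**Figure D4:**
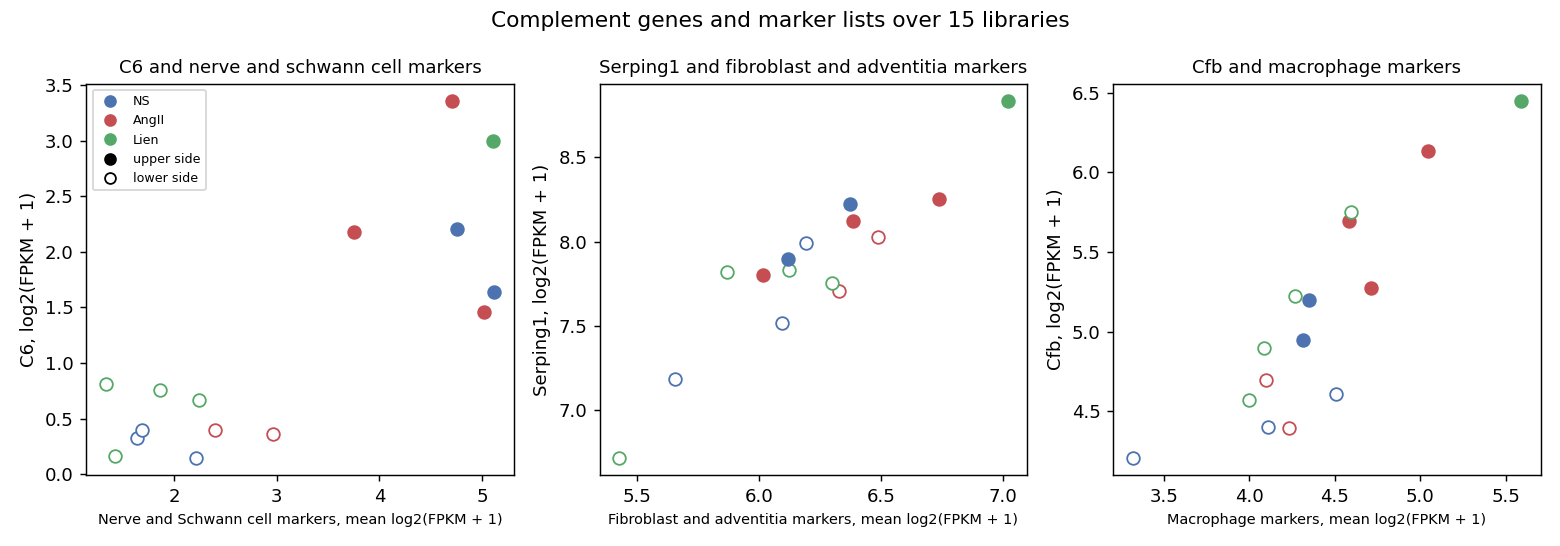
Level of C6, Serping1 and Cfb (vertical axes, log2(FPKM + 1)) against the mean of the nerve, fibroblast and macrophage markers (horizontal axes, mean log2(FPKM + 1)) in 15 libraries, coloured by group. C6 separates the filled upper side (1.75 to 9.22 FPKM) from the open lower side (0.109 to 0.758 FPKM). Its r with the nerve markers is -0.168 on the lower side and -0.080 on the upper. Lien 11 is at the upper right of the Serping1 and Cfb panels.

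The genes most like the 8 in pattern were sought among 7531 protein-coding genes with a mean of at least 5 FPKM, by Pearson's r over 15 libraries, as a description. For the mean of the 8 scaled genes these were Ap2m1 (r 0.968; 0.897 on the lower side and 0.917 on the upper), Stip1 (0.967), Man1c1 (0.964), Rnf145 (0.956), Capg (0.955), Pltp (0.954), Sgpp1 (0.951), Rab32 (0.943), Marcks (0.938) and Trim35 (0.938). Plekha4 (r 0.977), Lima1 and Matn2 came nearest to C2, Tmem159 (0.947), Ppp2r5c and Dirc2 to C1ra, and Laptm4a (0.959), Lix1l and Cygb to Serping1. Plxnd1 (0.877), Nhlrc3 and Lcn2 came nearest to C3, Ms4a6d (0.863), H13 and Wfdc17 to C4b, and Pigt (0.942), Ctss and Mdp1 to Cfb. C6 was nearest to Smap2 (0.956), Cfp and Cd209b, of which Cfp is properdin, which stabilises the alternative C3-cutting enzyme, and had r 0.370 with C6 on the lower side and 0.970 on the upper. C7 was nearest to Lin7c (0.933), Tgfbi and Pdgfra, the last a fibroblast receptor and a member of the fibroblast marker list.

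How the RNA was divided among transcripts differed by gene. C3-201, C1ra-201 and C7-201 carried the whole of their genes, to rounding, C4b-201 97.9% and C2-201 95.5%. Cfb was spread over protein-coding transcripts, with Cfb-202 at 36.3% of the summed level (13.2% in AngII 8 to 80.6% in NS 1) and Cfb-201 at 27.8% (5.99% in Lien 11 to 80.1% in AngII 8). Taking only Cfb-202, the highest transcript on average, turned the log2 difference of AngII minus NS from 0.57 to -0.11. Serping1-203, a processed transcript, held 11.3% of Serping1, from 4.12% in Lien 13 to 29.4% in NS 2. C6-204 held 83.9% of C6, and in Lien 15 all of the 0.588 FPKM fell to C6-201.

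Some of these genes share sequence with others, which can move fragments between them. Of the windows of 100 bases in the main transcript, C1ra shared 34.5% with its copy C1rb and C4b shared 16.5% with its copy C4a. C1rb stood at 0 to 6.47 FPKM, up to 14.7% of the sum with C1ra, and C4a at 0.106 to 1.44 FPKM, up to 2.59% of the sum with C4b. The read-through gene Gm20547 shared 53.2% of the windows of C2 and 81.0% of those of Cfb. Its level is not given here, and its part in the C2 and Cfb values was not tested. C3, Serping1, C6 and C7 shared none.

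The rest of the pathway was measured with the same fit. Of 46 other complement genes, 45 were in the table and 31 were tested, and none passed an adjusted p under 0.05 in any of the 3 comparisons. Their medians were 0.29, -0.16 and -0.01 for AngII minus NS, Lien minus AngII and Lien minus NS, with 25, 10 and 15 of 31 above 0, beside medians of 0.12, -0.13 and -0.01 for all genes. At an unadjusted p under 0.05 lay 1, 3 and 3 of the 31, beside 7.04%, 6.4% and 7.06% of all tested genes.

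Among recognition genes, C1qb and C1qa, chains of C1q made largely by macrophages, averaged 95.5 and 89.4 FPKM, and both were highest in Lien 11 at 246 and 199 FPKM. Cfd, factor D, also known as adipsin for its origin in fat cells, was the most abundant complement gene at 1822 to 6391 FPKM, and Cfp ranged from 13.1 to 65.6 FPKM. Of the terminal genes besides C6 and C7, C8g was at 1.16 to 8.60 FPKM, and C9 was at 7.85 FPKM in AngII 9 and at most 0.0551 elsewhere. Vtn, vitronectin, an inhibitor of the membrane attack complex, was at 52.7 FPKM in AngII 9 and at 5.15 to 17.6 FPKM elsewhere. The membrane regulators Cr1l and Cd59a ranged from 15.1 to 30.1 and from 8.45 to 19.3 FPKM, and the receptor genes C1qbp and Cd93 from 45.1 to 72.5 and from 12.8 to 21.8 FPKM.

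Cd55 had the lowest adjusted p of these genes in Lien against NS. Cd55 encodes decay-accelerating factor, which takes apart the C3-cutting enzymes on the cell's own surface, and is named here, like C4a above, after its values were seen. It stood at 8.14, 13.1, 10.9, 5.18 and 9.84 FPKM in NS 1 to 5, at 7.98, 9.79, 5.69, 10.0 and 4.49 FPKM in AngII 6 to 10, and at 5.99, 1.51, 5.38, 3.22 and 3.70 FPKM in Lien 11 to 15. NS 4 lay inside the range of Lien. The log2 difference for Lien minus NS was -1.11 (SE 0.30, unadjusted p = 0.00218, limma adjusted p = 0.260), and for Lien minus AngII -0.83 (limma adjusted p = 0.740). Clu, clusterin, an inhibitor of the membrane attack complex, averaged 150 ± 41.1 FPKM in NS, 241 ± 51.5 in AngII and 141 ± 59.3 in Lien (SD, n = 5 each), with log2 differences of 0.70 for AngII minus NS (limma adjusted p = 0.697) and -0.87 for Lien minus AngII (limma adjusted p = 0.740).

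AngII 9 stood apart among the other complement genes. Of the 45 other complement genes, 21 were highest in AngII 9 and 12 in Lien 11. AngII 9 and Lien 11 also lay farthest out on the upper side of the first component. The share of all genes highest in each is not given here, so these counts cannot be read as particular to complement. The 14 measured genes that missed the filter were all highest in AngII 9. Among them C9 stood at 7.85 FPKM in AngII 9, Cfi at 6.48, Hc (C5) at 5.38, C4bp at 5.12, C8a at 4.23, C8b at 3.27, Mbl2 at 3.12 and Masp2 at 3.00, and in the other 14 libraries these 8 were at most 0.304 FPKM. Hepatocyte markers moved with these values, at a mean of 6.03 in AngII 9 and at most 0.80 elsewhere, and their part was not tested. Leaving out AngII 9 gave medians of 0.30 for AngII minus NS and -0.13 for Lien minus AngII over the 8 complement genes described first, with 7 and 3 of 8 above 0.

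Of 26 signalling genes that lie upstream of complement induction, 25 were tested and none passed an adjusted p under 0.05. Their medians were 0.20, -0.26 and 0.01 in the 3 comparisons, beside 0.12, -0.13 and -0.01 for all tested genes. In limma, 4, 3 and 5 of the 25 had an unadjusted p under 0.05, beside 7.04%, 6.4% and 7.06% of all tested genes. The difference between these shares was not tested. Nfkbia, the inhibitor of NF-kappaB that NF-kappaB itself induces, stood at 38.7, 52.6, 64.3, 69.9 and 74.9 FPKM in NS 1 to 5, at 110.6, 150.0, 108, 132 and 88.5 FPKM in AngII 6 to 10, and at 101.5, 87.4, 90.8, 101.8 and 72.1 FPKM in Lien 11 to 15. The NS and AngII libraries did not overlap, as in 2.03% of all tested genes. The log2 difference was 0.97 (SE 0.19, limma adjusted p = 0.0833), or 1.07 with libraries weighted by their quality (limma adjusted p = 0.0447). Cebpb, a factor of the acute-phase response, averaged 300.4 ± 66.9 FPKM in NS, 220 ± 37.5 in AngII and 185 ± 60.5 in Lien (SD, n = 5 each), with a log2 difference of -0.75 for Lien minus NS (SE 0.24, limma adjusted p = 0.461) and -0.89 (limma adjusted p = 0.0266) with the nerve marker mean in the fit.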

How the data were processed

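RNA depleted of ribosomal RNA was sequenced, per the labels' protocols. The authors deposited 1 value per transcript and library for 131437 transcripts. The deposited values were read as FPKM, since no header or label names the unit. No fragment counts were used, so depth is unknown and no counting intervals are given. Aligner, quantifier and annotation: not given in the sources used here. The submitters' processing notes name limma. GENCODE M21 (GRCm38) held 99965 of the 101208 Ensembl transcripts, and their values were summed per gene. The 30229 assembled transcripts without a public identifier, 10.97% to 17.04% of the sum per library, were left out.

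A test needed 0.5 FPKM or more in 5 libraries or more. The tool was limma 3.58.1 under R 4.3.3, on log2(FPKM + 1), in 1 fit of 3 groups (12 residual degrees of freedom, trend and robust options, two-sided), with Benjamini-Hochberg adjustment over 15586 genes in each comparison. The script was tested on simulated data. Correlations were permuted exactly within the sides and with 100000 resamples over 15 libraries. The 8 genes, the gene lists, the marker lists and the alternatives were chosen with earlier results of these data known. Genes were named as these 8, any called gene of a list, the 2 of each role with the highest mean, and the genes most like them. Protein sequences were not used here, and 2 genes of the complement list are not reported here. Python 3.11.15 (pandas 2.3.3, numpy 2.4.6, scipy 1.17.1, matplotlib 3.10.9) made the tables and plots. Alternatives covered scaling, pseudocount, filter, covariates, library weights, transcripts and left-out libraries.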

Additional observations from a re-analysis of the deposited data

Results flagged for a closer look

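Within a group of 5, a value was taken as far from the others when its gap to the nearest exceeded 0.71 of the group's range, Dixon's critical value, which chance alone exceeds in about 1 in 20 groups. Of 24 sets of 5 libraries for the 8 complement genes, 3 (12.5%) held such a value, each in Lien 11. Over all tested genes 11.1% of 46578 sets did, 4.68% in Lien 11 and 0.764% in AngII 9, so the share among the 8 genes lay near that of all genes. C2 stood at 46.3 FPKM there with 16.6 FPKM next, C1ra at 71.8 FPKM with 31.9 FPKM next, and C6 at 6.98 FPKM with 0.758 FPKM next.

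Of 106 sets for the other complement genes, 27 (25.5%) held one, of which 11 were in Lien 11 and 13 in AngII 9. Mbl1, Mbl2, Fcnb and Cfi were seen only in AngII 9, so the value that admitted their AngII set also marked it. Such marks were fixed in advance, and the 25.5% is in part built in. The 106 sets include genes under the filter on low values. Over all genes of the table with at least 0.5 FPKM in the set the share was 13.6% of 51649, with 4.87% in Lien 11 and 1.63% in AngII 9. The difference between these shares was not tested. In Lien 11, C1qa stood at 199 FPKM, C1qb at 246, C1qc at 143, Cfp at 60.2, Itgb2 at 24.1, C5ar1 at 10.5, C3ar1 at 8.70, Itgax at 3.23, Csmd1 at 2.30, Cr2 at 1.91 and Cfhr2 at 1.21 FPKM, each the highest of Lien. In AngII 9, Vtn stood at 52.7 FPKM, C9 at 7.85, Cfi at 6.48, C1rb at 6.47, Hc at 5.38, C4bp at 5.12, C8a at 4.23, Cfhr2 at 3.40, C8b at 3.27, Mbl2 at 3.12, Masp2 at 3.00, Mbl1 at 1.64 and Fcnb at 0.685 FPKM, each the highest of AngII. C1rb stood at 4.81 FPKM in Lien 15 and Cr2 at 2.33 FPKM in NS 2, the highest of their groups, and C3ar1 at 1.77 FPKM in NS 4, the lowest of NS.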

How the results depend on the processing

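No complement gene of the 8 was called under any of 31 alternatives (lowest adjusted p 0.164, Cfb in Lien minus NS with the side of the first component as a term), and of 744 values 682 kept their direction and 62 reversed. Many of the 744 could not reverse, so the count does not measure stability. A log2 difference stays the same without a library of the group not compared. It also stays the same with other limma options, a fit of the compared groups alone or no filter. All values here are log2 differences that were not called, and the cause of each reversal was not tested. For AngII minus NS, the mesothelium marker mean as covariate gave -0.12 for C2, -0.67 for C6, -0.37 for C7, -0.11 for Cfb and -0.17 for Serping1. The highest transcript alone gave -0.11 for Cfb and 0.020 for C4b, and a pseudocount of 0.1 gave 0.00034 for C4b. For Lien minus AngII, the nerve marker mean as covariate gave 0.029 for C1ra, 0.19 for C3, 0.39 for C6 and 0.11 for Serping1. The side term gave 0.086 for C3, 0.305 for C6 and 0.041 for Serping1, the larger (lower) side alone 0.22 for C6, and one median 0.15 for C3 and 0.043 for Serping1. Leaving out NS 3 and AngII 9, the libraries highest in skeletal muscle markers, gave 0.017 for C3, and library weights -0.10 for Cfb. For Lien minus NS, the mesothelium covariate gave -0.13 for C1ra, -0.76 for C6 and -0.25 for Serping1. Library weights gave -0.026 for C1ra, -0.0016 for C3, -0.035 for C4b and -0.042 for Serping1. Leaving out AngII 9 and Lien 11 gave -0.20 for C1ra, -0.043 for C3, -0.34 for C6 and -0.23 for Serping1. C2 came to 0.16 with the nerve covariate, 0.14 without NS 3 and AngII 9, 0.10 with the side term and 0.017 on the larger side, and Serping1 to -0.084 after quantile normalization and -0.035 on the larger side.

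Leaving out 1 library at a time, the values that changed sign ran from -0.20 to 0.20 for C1ra, -0.46 to 0.14 for C2, -0.043 to 0.33 for C3, -0.34 to 0.45 for C6 and -0.23 to 0.30 for Serping1 in Lien minus NS, from -0.26 to 0.11 for C3, -0.13 to 0.36 for Cfb and -0.45 to 0.076 for Serping1 in Lien minus AngII, and from -0.14 to 0.11 for C4b in AngII minus NS. The count of upstream genes called went from 0 to 1 with library weights (Nfkbia, AngII minus NS) and from 0 to 1 with the nerve covariate (Cebpb, Lien minus NS), and that of the other complement genes was 0 under each alternative tried for it. The median r between pairs of the 8 genes fell from 0.634 to 0.193 on the larger side, 0.450 on the smaller side and 0.469 without the 2 farthest libraries. The side term, the larger side alone and the pair AngII 9 and Lien 11 were chosen after seeing the data. No paired analysis was possible because the groups share no replicate numbers.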
